A study of Mus musculus with 18 samples.

Results

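The 39 genes described here encode the proteins that license, start and carry out DNA replication, supply its nucleotides, repackage the copied DNA and move a cell from G1 into S phase. They were taken by symbol from a written set of replication and G1/S genes and matched to Ensembl identifiers, which gave 39 of the 50686 gene identifiers in the count table. The rule used no measured value, but the set was written with earlier results of these data known. All 39 were among the 13447 genes that passed a filter on low counts and were tested. Messenger RNA was counted in primary microglia, the resident macrophages of the brain, which were grown from forebrains of C57BL/6 pups of postnatal day 2 for 7 days and, after new medium, for 7 more. The 18 libraries came from 6 genotypes with 3 libraries each: Tbk1+/- Tak1ΔM/+ Ripk1 D138N/+, Tbk1+/- Tak1ΔM/+, Tbk1+/- Ripk1 D138N/D138N, Tbk1+/-, Tak1ΔM/+ and wild type (WT). The labels join the parts of these names with semicolons. TBK1 and TAK1, the product of Map3k7, are kinases that hold RIPK1 in check when tumor necrosis factor signals, and RIPK1 with the D138N change is kinase-dead. The series title names TBK1 as a suppressor of cell death and inflammation driven by RIPK1, and the genotypes ask what 1 altered allele of Tbk1, of Tak1 or of both changes, with and without kinase-dead RIPK1. All 6 groups shared strain, age and culture, and 4 of them carried Tbk1+/-. The labels spell out neither what ΔM stands for nor the cells in which that allele is altered. Nor do they state that replicates of 1 genotype were separate animals or cultures, so p-values measure only the spread between these libraries, which may be technical.

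Total counts ranged from 8016559 in Tbk1+/- Tak1ΔM/+ replicate 2 to 22989116 in Tbk1+/- Tak1ΔM/+ Ripk1 D138N/+ replicate 3. Expression is given as CPM, counts per 1e6 of the scaled library total, and a gene was called where its p-value, adjusted by the Benjamini-Hochberg method over all tested genes in edgeR's quasi-likelihood test, was under 0.05. Microglial markers summed to between 8353 and 11052 CPM in the 18 libraries, astrocyte markers to between 21.8 and 66.1 CPM, and neuronal markers to at most 20.4 CPM. Markers of border macrophages and monocytes summed to between 713 and 1315 CPM, and those of the oligodendrocyte lineage to between 118 and 170 CPM. Among the microglial markers Csf1r had 1619 to 2658 CPM, whereas Tmem119 had 1.45 to 6.56 CPM and P2ry12 had 2.97 to 17.4 CPM. Tbk1, which checks the labels, had 55.1, 56.4 and 66.0 CPM in Tbk1+/- Tak1ΔM/+ libraries and 50.5, 65.6 and 57.1 CPM in Tbk1+/- libraries, against a mean of 119 CPM in WT libraries. It stood at 123, 107 and 115 CPM in the 3 libraries labelled Tbk1+/- Tak1ΔM/+ Ripk1 D138N/+, and at 129.8 and 131 CPM in replicates 1 and 3 labelled Tbk1+/- Ripk1 D138N/D138N. These 5 libraries lay between 89.7% and 110.0% of the WT mean and go against the Tbk1+/- in their labels, whereas Tbk1+/- Ripk1 D138N/D138N replicate 2 had 54.9 CPM. Every result below that rests on these 5 libraries is a result of libraries with that label. Map3k7 was not called in Tbk1+/- Tak1ΔM/+ against WT, but it is not stated which part of the gene the ΔM allele lacks, so its level checks nothing. The share of counts from mitochondrially encoded genes also moved with genotype, at 0.463% ± 0.0824 in Tbk1+/- Tak1ΔM/+, 2.01% ± 0.191 in Tbk1+/-, 1.12% ± 0.583 in Tak1ΔM/+ and 1.24% ± 0.499 in WT (SD, n = 3 each).

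Replication starts from origins that are licensed in G1, when the origin recognition complex, CDC6 and CDT1 load the MCM2-7 ring onto DNA. At the G1/S border cyclin E with CDK2 frees E2F factors from the retinoblastoma protein, E2F raises transcription of much of the replication machinery, and CDC45 and GINS join the MCM ring to form the active helicase. Polymerases, the PCNA clamp, ligase and the enzymes that make deoxynucleotides then act through S phase, while chromatin assembly factor 1, UHRF1 and DNMT1 restore nucleosomes and methylation behind the fork. In the brain microglia renew themselves by division, and in culture they divide in response to growth factors.

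Promoter sequences were read for the members because E2F sites, CCAAT boxes and the cell cycle genes homology region (CHR) are the classical elements of cell cycle promoters. Of the 39 members, 33 had an entry in the RefSeq promoter table (GRCm38.p6), with 40 windows in all. Each window held 300 bases, from 250 before to 50 after a start. Ccne2, Gins1, Gins2, Gmnn, Mcm4 and Pole had no entry. A gene with more than 1 window counted as matched where any of them held a match. Windows were searched on both strands for the E2F octamers TTTCCCGC, TTTCGCGC, TTTGCCGC and TTTGGCGC, for the CHR letters TTTGAA and for CCAAT. The octamers overlap their own reverse complement in part, so that 1 stretch of DNA can give a match on each strand. At least 1 octamer was found in 14 of 33 members (42.4%), against 2.6% of all 27025 genes in the table and 1 of 20 genes of a G2 and mitosis list (5%). The CHR letters had the opposite spread, with matches in 4 of 33 members (12.1%), 14 of 20 mitosis genes (70%) and 20.2% of all genes. CCAAT was found in 20 of 33 members (60.6%), in 16 of 20 mitosis genes (80%) and in 41.1% of all genes. A match describes the letters in the window and is not evidence of a bound site.

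**Figure D1:**
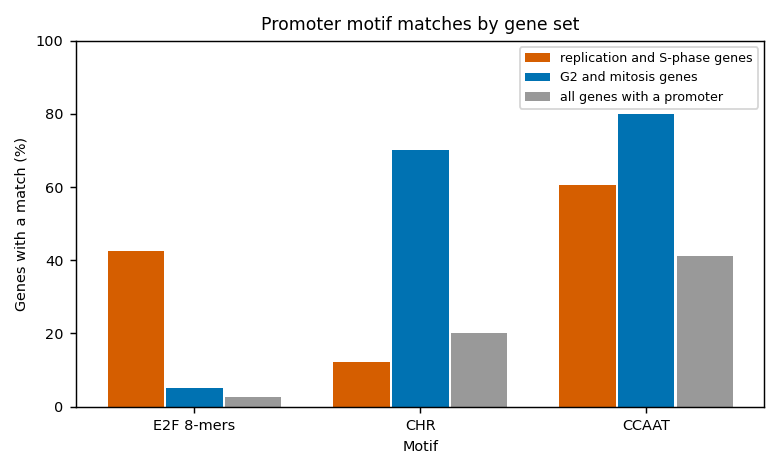
Share of genes, in percent, with a match to the E2F octamers, the CHR letters or CCAAT in any of their promoter windows of 300 bases, for the 33 replication and S-phase genes with a promoter entry, the 20 G2 and mitosis genes with one, and all 27025 genes in the RefSeq table. Replication genes stand highest for the E2F octamers (42.4%) and mitosis genes for CHR (70%).

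The 250 bases before the start are shown for 5 members, picked after their values were seen: Tk1, Rrm2 and Cdc45, which changed between genotypes, and Mcm5 and Mcm6, which edgeR's test called in no comparison and which hold E2F octamers on both strands at 1 place. Each is written 5′ to 3′ on the strand of its gene, with matches to any of the motifs in capitals. They are chr11:117826015-117826264 (minus strand) for Tk1, chr12:24708004-24708253 (plus strand) for Rrm2, chr16:18811973-18812222 (minus strand) for Cdc45, chr8:75109259-75109508 (plus strand) for Mcm5 and chr1:128359706-128359955 (minus strand) for Mcm6 of GRCm38.p6.
Tk1: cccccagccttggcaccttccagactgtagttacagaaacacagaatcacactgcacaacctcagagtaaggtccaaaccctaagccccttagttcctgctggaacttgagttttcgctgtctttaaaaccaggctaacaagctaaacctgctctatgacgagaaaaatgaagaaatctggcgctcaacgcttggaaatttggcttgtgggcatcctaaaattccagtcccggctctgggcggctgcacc
Rrm2: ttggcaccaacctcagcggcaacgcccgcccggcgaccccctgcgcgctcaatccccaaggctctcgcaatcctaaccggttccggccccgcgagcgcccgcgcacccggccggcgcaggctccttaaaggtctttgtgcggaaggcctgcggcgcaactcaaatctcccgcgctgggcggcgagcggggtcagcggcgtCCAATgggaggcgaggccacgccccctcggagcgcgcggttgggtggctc
Cdc45: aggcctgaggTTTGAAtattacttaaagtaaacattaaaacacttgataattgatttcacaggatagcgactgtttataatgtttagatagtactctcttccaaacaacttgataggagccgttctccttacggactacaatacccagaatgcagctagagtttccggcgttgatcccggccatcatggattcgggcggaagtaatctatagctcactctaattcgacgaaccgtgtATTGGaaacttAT
Mcm5: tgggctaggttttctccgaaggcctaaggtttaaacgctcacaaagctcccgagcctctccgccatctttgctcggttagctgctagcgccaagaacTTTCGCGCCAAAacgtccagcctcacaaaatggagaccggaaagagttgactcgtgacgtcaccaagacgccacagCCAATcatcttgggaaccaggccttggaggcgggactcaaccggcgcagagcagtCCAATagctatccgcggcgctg
Mcm6: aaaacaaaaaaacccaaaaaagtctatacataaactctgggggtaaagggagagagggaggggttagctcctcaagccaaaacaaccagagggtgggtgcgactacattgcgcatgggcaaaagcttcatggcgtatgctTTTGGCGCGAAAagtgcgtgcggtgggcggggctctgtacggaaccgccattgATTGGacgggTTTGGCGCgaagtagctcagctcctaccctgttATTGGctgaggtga
The Tk1 window held none of the motifs. Rrm2 had 1 CCAAT box, 50 bases before the start. Cdc45 had a CHR match 240 bases and CCAAT boxes 13 and 2 bases before the start. The nearer of these boxes runs past the start and is shown in part. A further CHR match of Cdc45, 10 bases after the start, and a CCAAT box of Mcm5, 6 bases after it, lie outside the stretch shown. Mcm5 carried octamers 153 and 149 bases before the start, and Mcm6 carried them at 110, 106 and 47 bases. Among the 8 members that fell in the comparison of Tbk1+/- Tak1ΔM/+ with Tbk1+/- below, 7 had a promoter entry and 2 of those an octamer, against 12 of the 26 other members with an entry; this split was not tested.

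In WT cells the clamp Pcna stood highest per length, at 60.6 ± 8.83 CPM per kilobase of exon (SD, n = 3), with Mcm6 next at 25.4 ± 4.49 CPM per kilobase. Gmnn, the inhibitor of CDT1, followed at 19.2 ± 1.94 CPM per kilobase, and Mcm3 at 16.1 ± 3.05 CPM per kilobase. Gmnn and Mcm3 did not differ beyond their spread. Length here joins all annotated exons of a gene, so levels per length and their order depend in part on the annotation. The lowest levels per length were those of the leading-strand polymerase Pole at 0.264 ± 0.158 CPM per kilobase, of Cdc6 at 0.622 ± 0.184 and of Orc1 at 0.628 ± 0.507. Genes with such levels rest on few reads: Pole had 10 and 10 counts in replicates 1 and 2 of Tbk1+/- Tak1ΔM/+. Counts of Pcna and Tyms can include reads of named pseudogene copies. The library chemistry does not mark strand, and 14 members share exon bases with a gene on the other strand, 7 of them over 10% of their exon length, among them Fen1 (78.8%), Gins2 (67.3%), Chaf1a (52.5%, with Ubxn6) and Ccne2 (17.4%, with Ints8).

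Across the 6 genotypes the members moved little as a set and unevenly one by one. The overall test of the 6 genotypes called 5 of 39 members, Tk1, Ccne1, Cdc45, Uhrf1 and Rrm1, while it called 7.18% of all tested genes. The ratio of the highest to the lowest genotype mean was 1.82 at the median of the members and ran from 1.26 for Dnmt1 to 8.12 for Ccne2, with a median of 1.69 over all tested genes. A list of 25 G2 and mitosis genes from the same libraries had a median ratio of 10.0 and a lowest ratio of 2.98. The lowest genotype mean lay in Tbk1+/- Tak1ΔM/+ for 27 of 39 members (69.2%) and for 24.6% of all tested genes. The highest lay in Tbk1+/- Ripk1 D138N/D138N for 23 of 39 members (59%), against 12.5% of all tested genes, and replicate 2 of that genotype was the highest single library for 19 members. Tak1ΔM/+ replicate 1 was the lowest single library for 12 members. Its mitochondrial share was 0.453%, against 1.41% and 1.505% in the other replicates of Tak1ΔM/+, and that of Tbk1+/- Ripk1 D138N/D138N replicate 2 was 1.57%, against 0.451% and 0.449% in the other replicates there; the part of this in the levels was not tested.

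**Figure D2:**
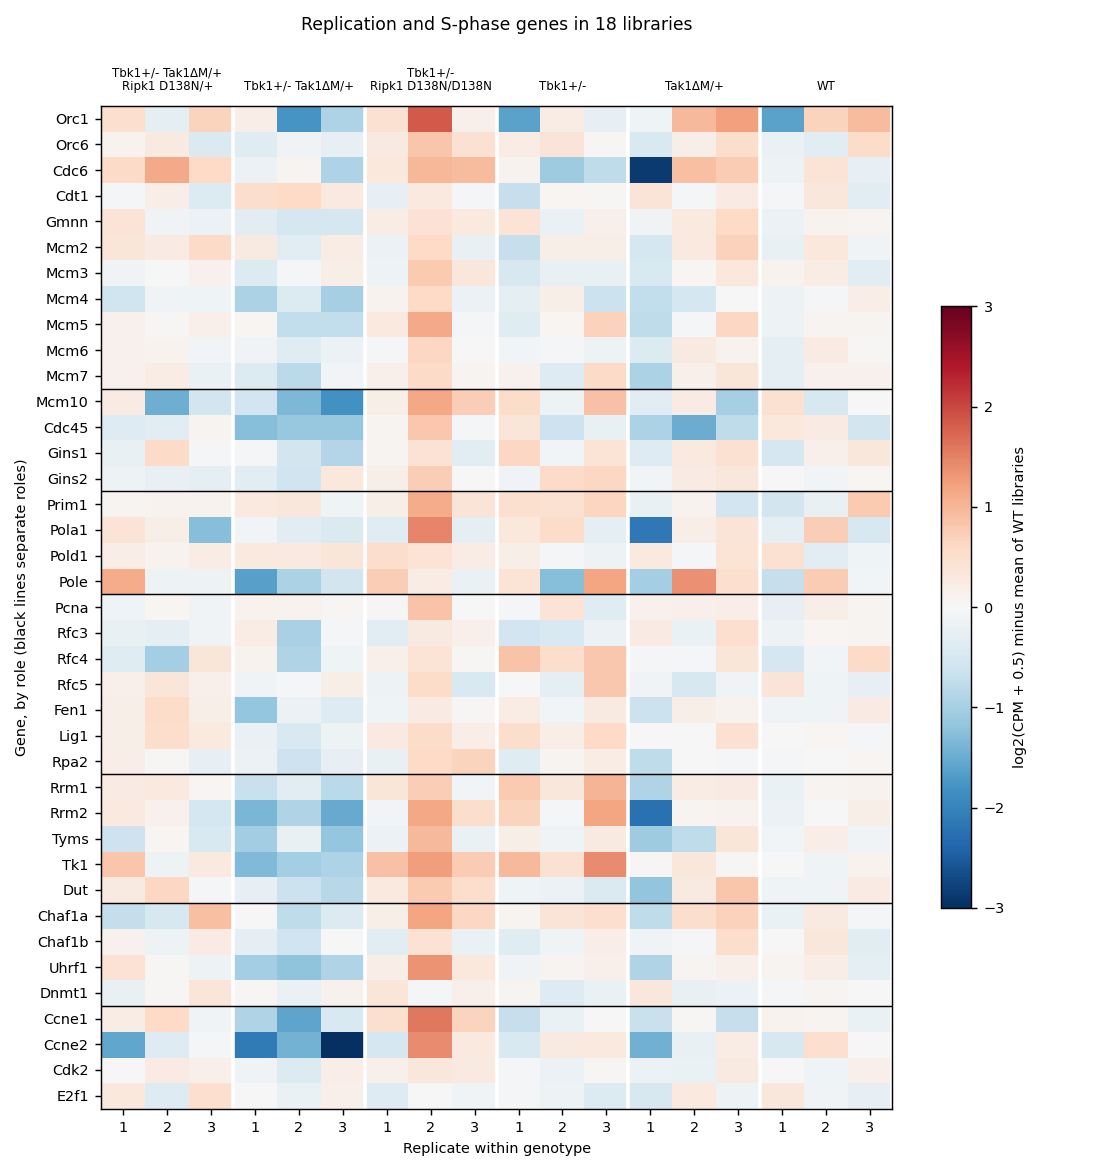
log2(CPM + 0.5) of each of the 39 members (rows, by role) in each of the 18 libraries (columns, 3 replicates per genotype), minus the mean of the 3 WT libraries; red is higher and blue lower than WT. The Tbk1+/- Tak1ΔM/+ columns are blue for Ccne2, Tk1, Rrm2, Cdc45 and Uhrf1, and Tbk1+/- Ripk1 D138N/D138N replicate 2 is red for most rows.

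Summed over the 39 members, Tbk1+/- Tak1ΔM/+ libraries held 871, 809.8 and 868 CPM, against 996, 1019 and 1089 CPM in Tbk1+/-, 804, 1027 and 1149 CPM in Tak1ΔM/+ and 901, 1063 and 987 CPM in WT libraries. The 3 Tbk1+/- Tak1ΔM/+ libraries lay below all Tbk1+/- and WT libraries, by a small margin over WT replicate 1, but Tak1ΔM/+ replicate 1 lay below all 3 of them. The mitosis list summed to 90.8, 80.4 and 105 CPM in Tbk1+/- Tak1ΔM/+ libraries, against 907, 283 and 960 CPM in Tbk1+/- libraries and 382, 461 and 312 CPM in WT libraries. Per CPM of mitosis transcripts, Tbk1+/- Tak1ΔM/+ libraries thus held 9.60, 10.1 and 8.28 CPM of replication transcripts, against 2.36, 2.31 and 3.17 in WT libraries, and the other libraries of the series held between 1.10 and 4.41. In bulk libraries fewer cells in a phase of the cycle and less RNA per cell cannot be told apart.

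**Figure D3:**
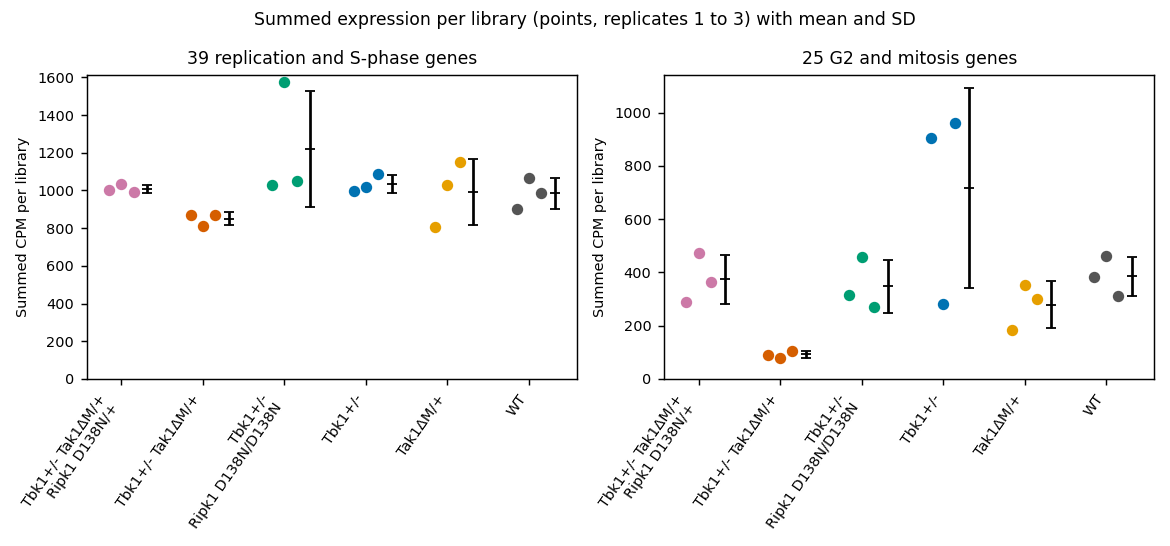
Summed CPM of the 39 replication and S-phase genes (left) and of 25 G2 and mitosis genes (right) in each library, with genotypes along the x axis, 1 point per replicate and the mean with SD beside it. The Tbk1+/- Tak1ΔM/+ points are the lowest genotype mean in both panels, at 809.8 to 871 CPM on the left and 80.4 to 105 CPM on the right.

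In Tbk1+/- Tak1ΔM/+ against WT, 3 of 39 members fell and none rose, where 3.9% of all tested genes fell and 2.16% rose. The 3 were the cyclin gene Ccne2, the helicase subunit gene Cdc45 and the thymidine kinase gene Tk1. The median log2 fold change of the members was -0.38, with 34 of 39 below 0, against a median of 0.00 over all tested genes. For 15 of 39 members all 3 Tbk1+/- Tak1ΔM/+ libraries lay below all 3 WT libraries, while 14.4% of all tested genes did so. In Tbk1+/- Tak1ΔM/+ against Tbk1+/-, which shares the Tbk1+/- Tak1ΔM/+ libraries with the comparison before it, 8 of 39 members fell and none rose, where 8.24% of tested genes fell and 6.44% rose. The 8 were Tk1, Rrm1, Rrm2, Lig1, Ccne2, Mcm10, Uhrf1 and Cdc45, and the median of the members was -0.56, with 30 of 39 below 0. In Tbk1+/- Tak1ΔM/+ against Tak1ΔM/+ Tk1 alone fell, where 2.05% of tested genes fell, and the median of the members was -0.40. Summed CPM of the Y-linked genes Ddx3y, Eif2s3y, Kdm5d and Uty was 84.7, 89.9 and 68.1 in Tbk1+/- Tak1ΔM/+ libraries and 2.78, 0 and 0 in Tak1ΔM/+ libraries, so sex and genotype cannot be told apart in this comparison, and the interaction below draws on it. It was 0, 45.7 and 65.9 CPM in Tbk1+/- Tak1ΔM/+ Ripk1 D138N/+, 0, 45.7 and 0 CPM in Tbk1+/- Ripk1 D138N/D138N, 62.3, 207 and 126 CPM in Tbk1+/- and 116, 53.6 and 0 CPM in WT libraries, and the comparison with WT libraries that hold Y-linked reads is the one without WT replicate 3, which called 1 member, Cdc45. All 3 Tbk1+/- Tak1ΔM/+ libraries lay below all Tbk1+/- libraries for 15 of 39 members (16.4% of tested genes) and below all Tak1ΔM/+ libraries for 5 of 39 (12.5%).

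**Figure D4:**
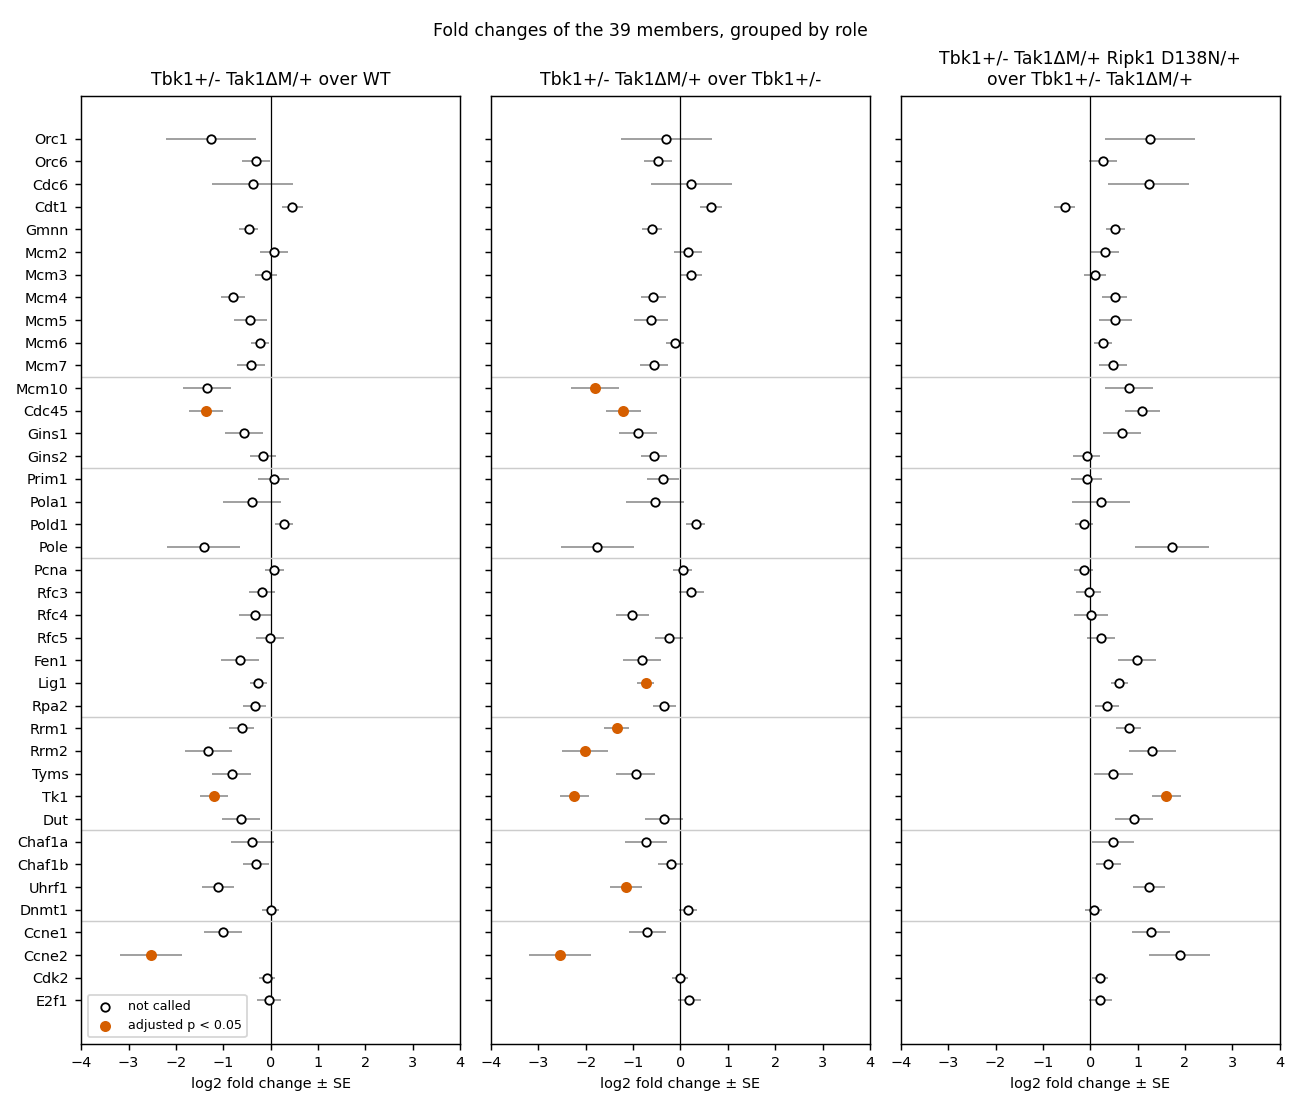
log2 fold change with its standard error for each of the 39 members (rows, by role) in Tbk1+/- Tak1ΔM/+ over WT, in Tbk1+/- Tak1ΔM/+ over Tbk1+/- and in Tbk1+/- Tak1ΔM/+ Ripk1 D138N/+ over Tbk1+/- Tak1ΔM/+; filled points have an adjusted p under 0.05 in edgeR's quasi-likelihood test. There are 3, 8 and 1 filled points from left to right.

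Of the nucleotide supply genes 5 of 5 had all 3 Tbk1+/- Tak1ΔM/+ libraries below all 3 WT libraries, where 14.4% of all tested genes did so. The median log2 fold change of these 5 genes was -0.82, and Tk1 alone of them was called over WT. Tk1, the cytosolic kinase that salvages thymidine, had 2.704, 3.49 and 3.73 CPM in Tbk1+/- Tak1ΔM/+ libraries, against 15.3, 10.5 and 21.02 CPM in Tbk1+/-, 7.75, 9.67 and 7.75 CPM in Tak1ΔM/+ and 7.597, 7.01 and 8.18 CPM in WT libraries. All Tbk1+/- Tak1ΔM/+ values are below those of the other 3 genotypes, and they span little. The log2 fold change was -1.20 (SE 0.30, adjusted p = 0.0249) over WT, -2.24 (SE 0.30, adjusted p = 0.00037) over Tbk1+/- and -1.34 (SE 0.30, adjusted p = 0.0215) over Tak1ΔM/+. In Tbk1+/- over WT it was 1.04 (SE 0.29, adjusted p = 0.253), which was not called, with all 3 Tbk1+/- libraries above WT. Leaving out any 1 of the 6 libraries raised the adjusted p over WT to between 0.0556 and 0.106, whereas over Tbk1+/- it stayed at or under 0.00351. Rrm1, the large subunit of ribonucleotide reductase, had 37.97, 47.5 and 34.4 CPM in Tbk1+/- Tak1ΔM/+ libraries, against 105, 76.5 and 123 CPM in Tbk1+/-, 32.3, 70.8 and 71.6 CPM in Tak1ΔM/+ and 52.5, 64.5 and 65.6 CPM in WT libraries. It fell over Tbk1+/-, with a log2 fold change of -1.35 (SE 0.26, adjusted p = 0.00272), and at -0.61 (SE 0.26, adjusted p = 0.19) was not called over WT, although the libraries of these groups did not overlap. Its adjusted p over Tbk1+/- reached at most 0.0223 when 1 library was left out. Rrm2, the small subunit that limits the enzyme in S phase, had 6.68, 9.47 and 6.02 CPM in Tbk1+/- Tak1ΔM/+ libraries, against 29.2, 17.5 and 41.9 CPM in Tbk1+/-, 3.42, 19.2 and 19.3 CPM in Tak1ΔM/+ and 15.9, 18.1 and 20.5 CPM in WT libraries. Its log2 fold change was -2.01 (SE 0.49, adjusted p = 0.0109) over Tbk1+/- and -1.31 (SE 0.49, adjusted p = 0.123) over WT, and the call over Tbk1+/- was lost without replicate 3 of Tbk1+/- Tak1ΔM/+ or of Tbk1+/-. For both subunits every Tbk1+/- Tak1ΔM/+ library lay below every Tbk1+/- and WT library, whereas Tak1ΔM/+ replicate 1 lay below all Tbk1+/- Tak1ΔM/+ libraries; the test called them only over Tbk1+/-. Thymidylate synthase (Tyms) and the dUTPase gene Dut were not called, at log2 fold changes of -0.82 and -0.62 over WT.

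**Figure D5:**
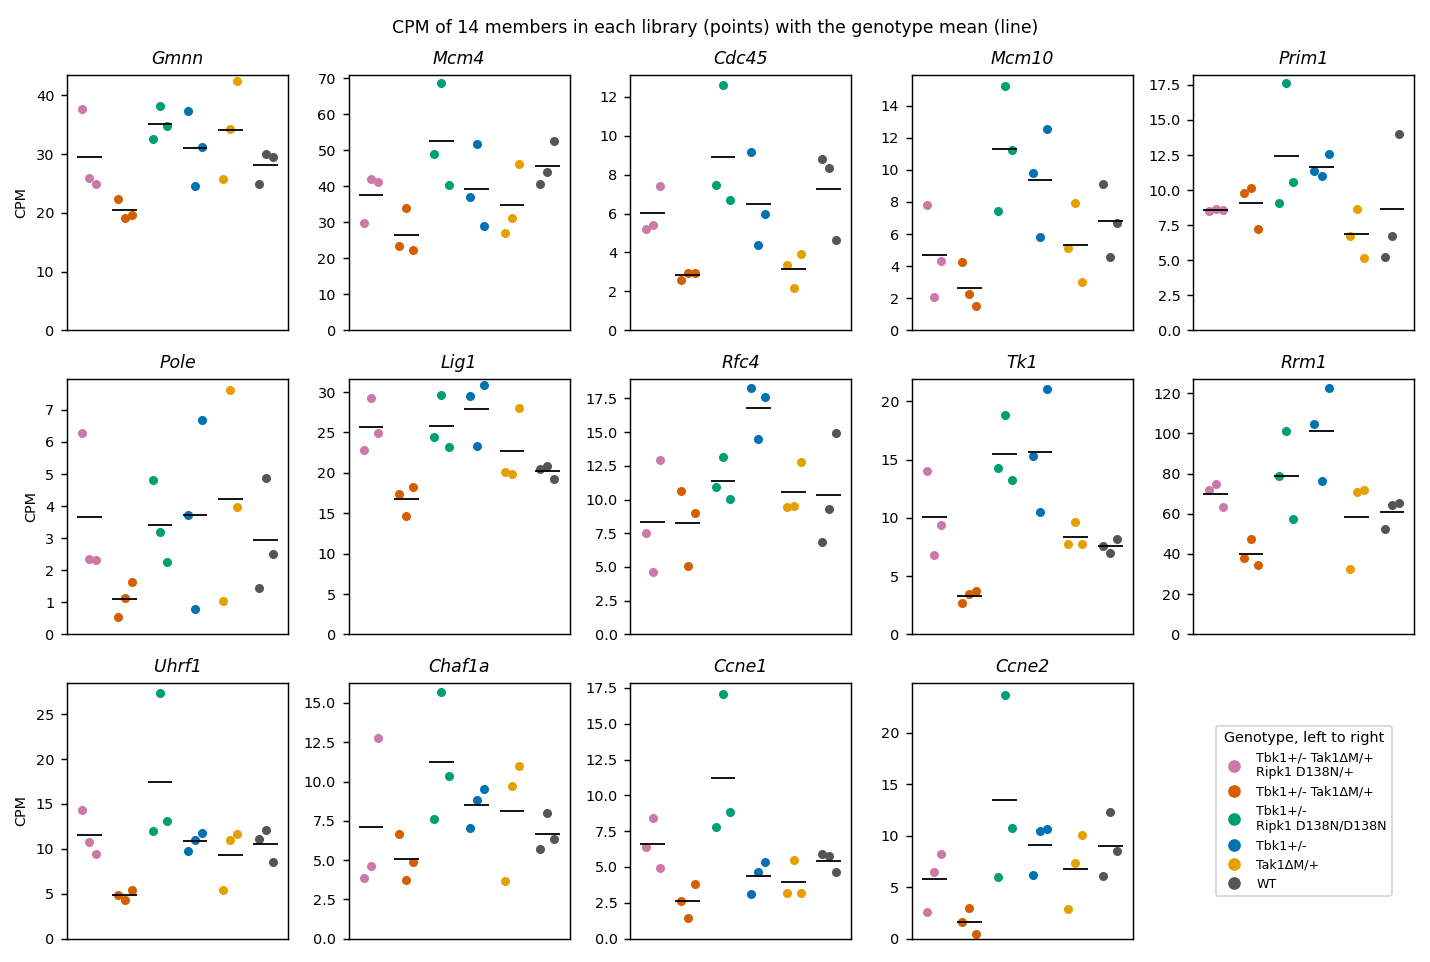
CPM of 14 members in each of the 18 libraries, 1 panel per gene with its own y axis from 0; points are replicates and the line is the genotype mean, with genotypes from left to right as in the key. The 3 Tbk1+/- Tak1ΔM/+ points lie below all WT points for Gmnn, Mcm4, Cdc45, Mcm10, Lig1, Tk1, Rrm1, Uhrf1, Ccne1 and Ccne2, and below the points of every other genotype for Tk1, Gmnn and Lig1; for Uhrf1 they are level with 1 Tak1ΔM/+ point.

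The helicase activation genes had the lowest median of the 7 roles in Tbk1+/- Tak1ΔM/+ over WT, -0.95 over 4 genes, all below 0. Cdc45, which joins the MCM ring as it fires, had 2.598, 2.93 and 2.94 CPM in Tbk1+/- Tak1ΔM/+ libraries, against 9.16, 4.396 and 5.97 CPM in Tbk1+/-, 3.37, 2.17 and 3.91 CPM in Tak1ΔM/+ and 8.800, 8.37 and 4.64 CPM in WT libraries. Libraries of Tbk1+/- Tak1ΔM/+ are tightly grouped and below every Tbk1+/- and WT library, while the Tak1ΔM/+ libraries overlap them. The log2 fold change was -1.36 (SE 0.37, adjusted p = 0.035) over WT and -1.21 (SE 0.37, adjusted p = 0.0339) over Tbk1+/-. In Tak1ΔM/+ over WT it was -1.21 (SE 0.36, adjusted p = 0.314), the smallest p of any member there, and was not called. The call over WT was kept only without WT replicate 3 (adjusted p 0.0229) and was lost without any other of the 6 libraries (0.0849 to 0.12), and that over Tbk1+/- was kept only without Tbk1+/- replicate 2. Mcm10, which helps the helicase open DNA and brings in polymerase alpha, had 4.24, 2.25 and 1.49 CPM in Tbk1+/- Tak1ΔM/+ libraries, against 9.79, 5.82 and 12.5 CPM in Tbk1+/- and 9.12, 4.596 and 6.67 CPM in WT libraries. It fell over Tbk1+/-, with a log2 fold change of -1.80 (SE 0.51, adjusted p = 0.0243), and was at -1.34 (SE 0.51, adjusted p = 0.135) over WT. The call over Tbk1+/- was lost without replicate 2 or 3 of Tbk1+/- Tak1ΔM/+ (0.0834 and 0.121) and without replicate 1 or 3 of Tbk1+/- (0.0642 and 0.0902). The GINS subunits Gins1 and Gins2 were not called, at -0.56 and -0.16 over WT.

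Of the G1/S regulators, the cyclin E genes lay lower and their partner and regulator did not separate. Ccne2, a cyclin E that activates CDK2, had 1.59, 2.93 and 0.448 CPM in Tbk1+/- Tak1ΔM/+ libraries, against 6.12, 10.4 and 10.7 CPM in Tbk1+/-, 2.87, 7.32 and 10.1 CPM in Tak1ΔM/+ and 6.08, 12.3 and 8.47 CPM in WT libraries. The Tbk1+/- Tak1ΔM/+ values differ widely among themselves, and the highest stands just above the lowest Tak1ΔM/+ library and below all Tbk1+/- and WT libraries. The log2 fold change was -2.52 (SE 0.65, adjusted p = 0.0295) over WT and -2.54 (SE 0.65, adjusted p = 0.0145) over Tbk1+/-, the largest of any member in both. These rest on 30, 26 and 9 reads in the 3 Tbk1+/- Tak1ΔM/+ libraries. The call over WT was lost without replicate 1 or 3 of Tbk1+/- Tak1ΔM/+ (0.103 and 0.139) or replicate 2 or 3 of WT (0.107 and 0.0514), and that over Tbk1+/- without replicate 1 or 3 of Tbk1+/- Tak1ΔM/+ (0.0558 and 0.075). Ccne1, the other cyclin E, had 2.65, 1.47 and 3.83 CPM in Tbk1+/- Tak1ΔM/+ libraries and 5.89, 5.77 and 4.64 CPM in WT libraries, with no overlap. Its log2 fold change of -1.01 (SE 0.40, adjusted p = 0.15) was not called. Cdk2, the kinase that cyclin E activates, and the transcription factor E2f1 were at -0.08 and -0.03 over WT.

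Among the chromatin factors the change lay in Uhrf1, which reads methylated DNA at the fork and recruits DNMT1. It had 4.88, 4.28 and 5.38 CPM in Tbk1+/- Tak1ΔM/+ libraries, against 9.74, 11.02 and 11.7 CPM in Tbk1+/-, 5.38, 11.02 and 11.7 CPM in Tak1ΔM/+ and 11.1, 12.1 and 8.53 CPM in WT libraries. All Tbk1+/- Tak1ΔM/+ libraries lie below those of Tbk1+/- and WT, while Tbk1+/- Tak1ΔM/+ replicate 3 and Tak1ΔM/+ replicate 1 are level. Its log2 fold change was -1.15 (SE 0.33, adjusted p = 0.0263) over Tbk1+/-, a call, and -1.12 (SE 0.33, adjusted p = 0.0554) over WT, not a call. The adjusted p over Tbk1+/- became 0.0724 without Tbk1+/- replicate 3 and between 0.0689 and 0.0875 without any 1 of the Tbk1+/- Tak1ΔM/+ libraries. Chaf1a, the large subunit of chromatin assembly factor 1, had 6.63, 3.72 and 4.88 CPM in Tbk1+/- Tak1ΔM/+ libraries and 5.698, 8.01 and 6.32 CPM in WT libraries, which overlap, and its log2 fold change was -0.38 (SE 0.45, adjusted p = 0.7). The maintenance methyltransferase gene Dnmt1 was at 0.00 over WT, and Chaf1b, the middle subunit, at -0.31.

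The licensing genes, the largest role with 11 members, gave no call in Tbk1+/- Tak1ΔM/+ against WT, Tbk1+/- or Tak1ΔM/+, and their median over WT was -0.38. Mcm4, a subunit of the MCM ring, came nearest over WT, with 23.3, 33.8 and 22.4 CPM in Tbk1+/- Tak1ΔM/+ libraries against 40.5, 43.95 and 52.6 CPM in WT libraries and no overlap. Its log2 fold change was -0.79 (SE 0.26, adjusted p = 0.0779). The other subunits of the ring lay between -0.43 (Mcm5) and 0.07 (Mcm2) over WT. Gmnn had 22.3, 19.2 and 19.7 CPM in Tbk1+/- Tak1ΔM/+ libraries, against 37.3, 24.5 and 31.2 CPM in Tbk1+/-, 25.8, 34.2 and 42.4 CPM in Tak1ΔM/+ and 24.9, 30.05 and 29.5 CPM in WT libraries, with no overlap. Its log2 fold change was -0.46 (SE 0.21, adjusted p = 0.209) over WT, -0.60 (SE 0.21, adjusted p = 0.0568) over Tbk1+/- and -0.74 (SE 0.21, adjusted p = 0.0625) over Tak1ΔM/+, none of them called. Cdt1, the loader that GMNN inhibits, ran the other way, with 57.3, 60.4 and 48.4 CPM in Tbk1+/- Tak1ΔM/+ libraries. It had 24.3, 41.2 and 40.8 CPM in Tbk1+/-, 51.8, 38.6 and 47.0 CPM in Tak1ΔM/+ and 38.6, 50.6 and 32.02 CPM in WT libraries. The Tbk1+/- Tak1ΔM/+ libraries lay above all Tbk1+/- libraries but overlapped those of Tak1ΔM/+ and WT. At 0.64 (SE 0.22, adjusted p = 0.0629) over Tbk1+/- and 0.45 (SE 0.22, adjusted p = 0.269) over WT, Cdt1 was not called either. The origin recognition genes Orc1 and Orc6 and the loader gene Cdc6 were at -1.26, -0.31 and -0.38 over WT.

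The polymerase and primase genes and the clamp, clamp loader and lagging-strand genes had the medians nearest 0 in Tbk1+/- Tak1ΔM/+ over WT, at -0.17 and -0.26. Among polymerases and primase no gene was called. The catalytic subunit Pole had 0.5302, 1.13 and 1.64 CPM in Tbk1+/- Tak1ΔM/+ libraries and 1.46, 4.89 and 2.49 CPM in WT libraries, at a log2 fold change of -1.42 (SE 0.78, adjusted p = 0.327). The primase gene Prim1, which starts each strand with an RNA primer, had 9.81, 10.1 and 7.22 CPM in Tbk1+/- Tak1ΔM/+ libraries and 5.25, 6.72 and 13.98 CPM in WT libraries, at 0.06 (SE 0.33, adjusted p = 0.951), with the WT libraries spread wider than the difference. Of the clamp, clamp loader and lagging-strand genes, Lig1 fell in Tbk1+/- Tak1ΔM/+ against Tbk1+/-. This ligase, which joins Okazaki fragments, had 17.4, 14.7 and 18.2 CPM in Tbk1+/- Tak1ΔM/+ libraries, against 29.5, 23.4 and 30.8 CPM in Tbk1+/- and 20.4, 20.9 and 19.2 CPM in WT libraries. Its log2 fold change was -0.73 (SE 0.18, adjusted p = 0.0113) over Tbk1+/-, a call lost without Tbk1+/- Tak1ΔM/+ replicate 2 (0.0523), and -0.26 (SE 0.18, adjusted p = 0.45) over WT. Rfc4, a subunit of the loader that opens the PCNA ring, had 10.6, 5.07 and 9.01 CPM in Tbk1+/- Tak1ΔM/+ libraries against 18.3, 14.5 and 17.6 CPM in Tbk1+/- libraries, without overlap, and its log2 fold change of -1.01 (SE 0.35, adjusted p = 0.062) was not called. Pcna itself had 154, 157 and 148 CPM in Tbk1+/- Tak1ΔM/+ libraries, within the range of WT libraries at 122, 162 and 153 CPM, for a log2 fold change of 0.07 (SE 0.20, adjusted p = 0.892).

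With mitochondrial share as a covariate, 0 of 39 members were called in Tbk1+/- Tak1ΔM/+ against WT, 1 (Tk1) against Tbk1+/- and 0 against Tak1ΔM/+; genotype and this share are partly confounded, and their parts cannot be told apart. Over WT that fit gave log2 fold changes of -1.20 for Tk1 (adjusted p = 0.092), -1.65 for Ccne2 (adjusted p = 0.155) and -0.89 for Cdc45 (adjusted p = 0.272), against -1.20, -2.52 and -1.36 without the covariate. Over all tested genes it called 216 against WT, where 816 were called without the covariate, and 49 against Tbk1+/-, where 1974 were. Marker lists of other cells stood apart as well. Astrocyte markers summed to 21.8 to 29.98 CPM in Tbk1+/- Tak1ΔM/+ and 43.6 to 56.1 CPM in WT libraries, and fibroblast, mural and endothelial markers to 4.62 to 5.77 CPM in Tbk1+/- Tak1ΔM/+ and 10.7 to 46.3 CPM in WT libraries. Those of the oligodendrocyte lineage summed to 166 to 169.98 CPM in Tbk1+/- Tak1ΔM/+ and 134 to 152 CPM in WT libraries, and those of border macrophages and monocytes to 713 to 770.4 CPM in Tbk1+/- Tak1ΔM/+ and 809 to 1315 CPM in WT libraries. Of the 7, 6, 8 and 5 tested genes of these lists edgeR called none, and 2, 4, 1 and 2 had an unadjusted p under 0.05. Among all tested genes 6.07% were called in this comparison and 20.2% had an unadjusted p under 0.05. Over the 18 libraries the oligodendrocyte sum came mostly from Cnp (59.0 to 101 CPM) and Mbp (44.9 to 82.3 CPM), with Mog at 0 in 17 libraries. That of border macrophages came mostly from Vim (465 to 1079 CPM) and Mrc1 (142 to 376 CPM), with Cd209a at 0 in all 18. Lyve1 ran from 0.106 to 156 CPM and was the only gene of that list called in edgeR's test of the 6 genotypes (adjusted p = 0.00639). In Tbk1+/- over WT the Lyve1 log2 fold change was 4.18 (SE 1.18, adjusted p = 0.259), not called, with overlapping libraries. In Tbk1+/- libraries the border macrophage and monocyte list summed to 841 to 1199 CPM. Of 12 microglial markers 1, Itgam, fell in Tbk1+/- Tak1ΔM/+ against WT, where 3.9% of tested genes fell. The part of these marker differences in the results was not tested.

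Kinase-dead RIPK1 on 1 allele was compared on the background with both altered kinases. In Tbk1+/- Tak1ΔM/+ Ripk1 D138N/+ against Tbk1+/- Tak1ΔM/+ 1 of 39 members rose, Tk1, and none fell, where 1.84% of tested genes rose and 0.617% fell. Tk1 had 13.99, 6.803 and 9.38 CPM in Tbk1+/- Tak1ΔM/+ Ripk1 D138N/+ libraries and 2.704, 3.49 and 3.73 CPM in Tbk1+/- Tak1ΔM/+ libraries, for a log2 fold change of 1.61 (SE 0.30, adjusted p = 0.00827). It was the only call, and was lost without Tbk1+/- Tak1ΔM/+ replicate 1. The median of the members was 0.48, with 33 of 39 above 0, and 13 of 39 had all Tbk1+/- Tak1ΔM/+ Ripk1 D138N/+ libraries above all Tbk1+/- Tak1ΔM/+ libraries, where 12.8% of tested genes did. Uhrf1 had 14.3, 10.8 and 9.43 CPM in Tbk1+/- Tak1ΔM/+ Ripk1 D138N/+ libraries and 4.88, 4.28 and 5.38 CPM in Tbk1+/- Tak1ΔM/+ libraries, at 1.24 (SE 0.33, adjusted p = 0.0592), and Rrm1 had 71.8, 74.6 and 63.1 CPM and 37.97, 47.5 and 34.4 CPM in the same groups, at 0.81 (SE 0.26, adjusted p = 0.122). Both groups stood apart without a call. The 3 libraries labelled Tbk1+/- Tak1ΔM/+ Ripk1 D138N/+ are those whose Tbk1 was near the WT level, so the comparison could not be given without them. In the same libraries against WT no member was called (0% of tested genes), no member had an unadjusted p under 0.05 (7.99% of tested genes), and the smallest p was that of Lig1, at 0.35 (SE 0.18, adjusted p = 0.676).

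On the Tbk1+/- background with both Ripk1 alleles altered, no member was called in Tbk1+/- Ripk1 D138N/D138N against Tbk1+/-, where 0.521% of tested genes were called; 4 members had an unadjusted p under 0.05 (15.3% of tested genes). The 11 licensing genes all had a positive log2 fold change there (median 0.33), and 29 of 39 members did (median 0.30). Ccne1 had the smallest p, with 7.803, 17.1 and 8.86 CPM in Tbk1+/- Ripk1 D138N/D138N libraries and 3.13, 4.68 and 5.37 CPM in Tbk1+/- libraries. The groups do not overlap, replicate 2 is far above the rest, and the log2 fold change was 1.35 (SE 0.39, adjusted p = 0.116). Of the 39 members 8 had all Tbk1+/- Ripk1 D138N/D138N libraries above all Tbk1+/- libraries, against 8.57% of tested genes. Leaving out replicates 1 and 3 of Tbk1+/- Ripk1 D138N/D138N, whose Tbk1 level went against the label, left 1 library there, with the spread taken from the other groups; 0 members were called, which says nothing about stability. In Tbk1+/- Ripk1 D138N/D138N against WT no member was called (0% of tested genes), and 36 of 39 log2 fold changes were above 0, with a median of 0.35. Summed over the members, replicates 1 to 3 of Tbk1+/- Ripk1 D138N/D138N held 1030, 1576 and 1051 CPM, against 901, 1063 and 987 CPM in WT libraries. Replicates 1 and 3 thus lay within the range of WT sums. Tk1 had 14.3, 18.9 and 13.3 CPM in Tbk1+/- Ripk1 D138N/D138N libraries and 7.597, 7.01 and 8.18 CPM in WT libraries, at 1.03 (SE 0.29, adjusted p = 0.934), and 3 members had an unadjusted p under 0.05, as did 688 of the tested genes (5.12%).

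The single altered alleles gave no call among the members. In Tbk1+/- against WT 0 of 39 were called (0.0521% of tested genes), 3 had an unadjusted p under 0.05 (10.2% of tested genes), and the median log2 fold change was 0.04. These were Tk1, Rrm1 (0.73 (SE 0.26, adjusted p = 0.356)) and Lig1 (0.47 (SE 0.18, adjusted p = 0.387)), each with all Tbk1+/- libraries above all WT libraries, as were 6.28% of tested genes. In Tak1ΔM/+ against WT 0 of 39 were called (0.0149% of tested genes), 1 had an unadjusted p under 0.05 (9.47% of tested genes), and the median was 0.01. The interaction asks whether Tbk1+/- Tak1ΔM/+ differs from what the single alleles would add up to. It called 1 of 39 members, Tk1, lower than the sum, where 1.22% of tested genes were called lower and 0.528% higher. The Tk1 interaction was -2.38 (SE 0.41, adjusted p = 0.0116) on the log2 scale, and it was called with each of the 12 libraries of the 4 genotypes left out in turn. The median interaction of the members was -0.50. All of these comparisons share the Tbk1+/-, Tak1ΔM/+, Tbk1+/- Tak1ΔM/+ or WT libraries and are not independent of each other.

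The members also differed in how they followed each other over the 18 libraries. As a description, the median Pearson correlation of log2 values over 741 pairs of members was 0.38, and 125 pairs were negative; the libraries share genotype and depth, and genes are not replicates. Uhrf1 followed the mean of the other 38 members most closely (r = 0.94), and Mcm5 (0.88) and Rrm2 (0.87) came next. Cdt1 (-0.36), Dnmt1 (-0.20) and Pold1 (-0.16) ran against it; with the mean of each genotype taken off, these 3 had 0.13, -0.57 and -0.25. With the mean of the mitosis list, Rrm1 (0.83), Lig1 (0.81), Tk1 (0.80) and Rrm2 (0.77) had the highest correlations, and Cdt1 (-0.63) the lowest. The Tbk1+/- Tak1ΔM/+ libraries, from which the fold changes come, are among these points.

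Related genes outside the 39 were counted from written lists, in Tbk1+/- Tak1ΔM/+ against WT. Of 25 G2 and mitosis genes 18 fell (median log2 fold change -2.36; 3.9% of tested genes fell), among them Ube2c (-3.19, adjusted p = 0.000665), which targets mitotic cyclins for destruction, the cyclin B gene Ccnb1 (-3.44, adjusted p = 0.00158) and the kinase gene Aurkb (-2.31, adjusted p = 0.00346). Over Tbk1+/- 25 of 25 fell (median -3.31; 8.24% of tested genes), and in Tbk1+/- Tak1ΔM/+ Ripk1 D138N/+ against Tbk1+/- Tak1ΔM/+ 17 of 25 rose (median 2.34; 1.84% of tested genes). Of 37 other replication factors 2 fell, the origin recognition gene Orc4 (-0.85, adjusted p = 0.0149) and the topoisomerase gene Top2a (-2.26, adjusted p = 0.0156), with a median of -0.21; the background for this and the next lists is the 3.9% of all tested genes that fell. Of 11 tested G1 cyclins, CDKs and inhibitors Cdkn1b, which encodes the CDK inhibitor p27, fell (-1.25, adjusted p = 0.0317), and of 17 E2F and RB family genes E2f2 fell (-2.50, adjusted p = 0.041). None of 16 genes of salvage and other nucleotide synthesis was called, and 14 of them lay above 0, with the mitochondrial folate enzymes Shmt2 (0.57, adjusted p = 0.0734) and Mthfd2 (1.52, adjusted p = 0.075) at the smallest p.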

How the data were processed

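RNA was reverse transcribed with oligo(dT) priming by Smart-seq2 from 1 ng of RNA, amplified for 12 cycles and read as 50-base pairs, per the labels' protocols. The deposited table holds raw counts of reads per gene, which the authors did not normalize. STAR, featureCounts and mm10 are named in the submitters' processing notes, whereas the labels' protocol names RSEM; the values were whole numbers and were used as counts. Tool versions, gene annotation and strand setting are not given in the sources used here. Amplified reads without molecular identifiers are not independent molecules, so depth covers counting error only.

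Of 50686 identifiers, 50376 matched a symbol in GENCODE M21. Genes were kept by filterByExpr (13447), scaled with edgeR's TMM factors, and tested with the quasi-likelihood test of edgeR 4.0.16 in R 4.3.3, in 1 fit of the 18 libraries with a term per genotype. The Benjamini-Hochberg adjustment ran over all tested genes of a comparison. CPM are counts per 1e6 of the scaled total. A pseudocount of 0.5 CPM was added for the log2 values of the heatmap, of all correlations and of the check of same-numbered libraries. The procedure was tested on simulated counts, drawn independently for each gene and library. These carried no differences in mitochondrial share, so that test does not bear on how stable the calls are. A gene is said to rise or fall only where it was called.

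The members and the gene lists were chosen with earlier results of these data known. Described in full were the 2 members of each role with the smallest p in the overall test and the member with the smallest p in each comparison; Rrm2, Cdt1, Pcna and the printed promoters were added after their values were seen. Of each other list up to 3 called genes with the smallest p in Tbk1+/- Tak1ΔM/+ against WT were named, or 2 where none was called. Replicate numbers appear in the labels, but same-numbered libraries did not deviate together (7 of 45 pairs with a correlation over 0.1, median -0.01), so no block was used. Alternatives were DESeq2 1.42.0, DESeq2 size factors in edgeR, no filter, a filter at a mean of 5 CPM, a replicate block, the mitochondrial share as a covariate, only the libraries compared, leaving out the 5 libraries with Tbk1 near WT, and leaving out each library in turn. Promoter and gene coordinates are from RefSeq and GENCODE on GRCm38, the assembly that mm10 names. Proteins and genome sequence were not used here. The list of replication checkpoint and fork repair genes is not reported here.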

Additional observations from a re-analysis of the deposited data

Results flagged for a closer look

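The Tk1 difference between Tbk1+/- Tak1ΔM/+ and Tak1ΔM/+ differed from that between Tbk1+/- and WT, with an interaction of -2.38 on the log2 scale (SE 0.41, adjusted p = 0.0116, edgeR's quasi-likelihood test). Tk1 had 2.704, 3.49 and 3.73 CPM in Tbk1+/- Tak1ΔM/+ libraries and 7.75, 9.67 and 7.75 CPM in Tak1ΔM/+ libraries, and 15.3, 10.5 and 21.02 CPM in Tbk1+/- libraries and 7.597, 7.01 and 8.18 CPM in WT libraries. It was lower in 3 of 3 libraries in the first pair and higher in 3 of 3 in the second. Y-linked reads differed between Tbk1+/- Tak1ΔM/+ and Tak1ΔM/+ libraries, and the part of this was not tested. The mitochondrial share moved with both pairs, and with it as a covariate no member had a called interaction.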

How the results depend on the processing

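The number of members called held within 1.5 times under DESeq2 size factors and without the 5 libraries with Tbk1 near WT (overall test 6, Tbk1+/- Tak1ΔM/+ against WT 3, where Uhrf1 took the place of Cdc45), and it was 0 in Tbk1+/- Tak1ΔM/+ Ripk1 D138N/+ and Tbk1+/- Ripk1 D138N/D138N against WT and in Tak1ΔM/+ against WT under all alternatives that could be run; without those 5 libraries no Tbk1+/- Tak1ΔM/+ Ripk1 D138N/+ library and 1 Tbk1+/- Ripk1 D138N/D138N library were left. DESeq2 called 6 members in Tbk1+/- Tak1ΔM/+ against WT, 3 against Tak1ΔM/+, 1 in Tbk1+/- Ripk1 D138N/D138N against Tbk1+/-, 6 in Tbk1+/- Tak1ΔM/+ Ripk1 D138N/+ against Tbk1+/- Tak1ΔM/+, 3 in the interaction and 10 in the overall test. Without the filter these were 8, 5, 1, 5, 4 and 10, and 1 (Rrm1) in Tbk1+/- against WT. The filter at 5 CPM gave 2 in Tbk1+/- Tak1ΔM/+ Ripk1 D138N/+ against Tbk1+/- Tak1ΔM/+. The mitochondrial covariate gave 0 in Tbk1+/- Tak1ΔM/+ against WT, 1 against Tbk1+/-, 0 against Tak1ΔM/+, 0 in the interaction and 3 overall. A fit on only the libraries compared gave 7 in Tbk1+/- Tak1ΔM/+ against WT and 4 in Tbk1+/- Tak1ΔM/+ Ripk1 D138N/+ against Tbk1+/- Tak1ΔM/+. The cause of these shifts was not tested.

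Leaving out 1 library at a time gave 0 to 1 members in Tbk1+/- against WT (Tk1, without Tbk1+/- replicate 2), 0 to 1 in Tbk1+/- Tak1ΔM/+ against WT (0 without Tbk1+/- Tak1ΔM/+ replicates 1 or 3 or WT replicate 2), 3 to 10 against Tbk1+/- (3 without Tbk1+/- Tak1ΔM/+ replicate 3), 0 to 7 against Tak1ΔM/+ (7 without Tak1ΔM/+ replicate 1, 0 without Tak1ΔM/+ replicates 2 or 3 or any Tbk1+/- Tak1ΔM/+ replicate), 0 to 1 in Tbk1+/- Tak1ΔM/+ Ripk1 D138N/+ against Tbk1+/- Tak1ΔM/+, 1 to 4 in the interaction (4 without Tbk1+/- replicate 2) and 1 to 6 overall (1 without Tbk1+/- Tak1ΔM/+ replicates 1 or 2). In the other 4 comparisons it gave 0. Without a library a group keeps 2, so fewer calls follow in part from the smaller number.

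With the replicate number as a block, 2 members were called in Tbk1+/- Tak1ΔM/+ against WT, 8 against Tbk1+/-, 1 against Tak1ΔM/+, 1 in Tbk1+/- Tak1ΔM/+ Ripk1 D138N/+ against Tbk1+/- Tak1ΔM/+, 1 in the interaction, 4 overall and 0 elsewhere; Cdc45 lost its calls, at -1.35 over WT and -1.19 over Tbk1+/-, and Rfc4 gained one over Tbk1+/- at -1.04. The numbers are not known to pair the libraries.

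Directions turned for Chaf1a with the mitochondrial covariate (0.27 over WT, 0.60 over Tbk1+/-), for Ccne1 with it over Tbk1+/- (0.016), for Prim1 over WT without Tbk1+/- Tak1ΔM/+ replicates 1 or 2 or WT replicates 1 or 2 (-0.02, -0.04, -0.21 and -0.11; range -0.21 to 0.58), and for Rfc4 over WT without WT replicate 3 (0.0297; range -0.57 to 0.0297); none of these was called. Of 390 single-gene values under alternatives, 317 kept direction and side of the threshold, among them genes that were called in neither fit. A call was lost in 45, a call was gained in 20, and the direction turned in 8. Depth limits the low genes most, with Orc1, Fen1, Pole and Cdc6 lowest in mean CPM.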
